A study of Margaritifera margaritifera with 32 samples.

Results

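The change between 2 sampling years was described in the kidney of the freshwater pearl mussel Margaritifera margaritifera, a long-lived and endangered bivalve, at a site of the Dronne River in France that lies upstream of a wild dumping site. The series holds 32 kidney RNA-seq libraries, each from 1 wild animal: 8 animals from the upstream site and 8 from a downstream site in April 2009, and again 8 and 8 in March 2010. The 16 upstream libraries were the members here, chosen by their labelled site and year, and 2010 was set against 2009 across all contigs. The labels gave 4 middle-aged, 3 young and 1 old animal in 2009, and 3 middle-aged, 4 young and 1 old in 2010. Within each group the animals are named here as replicates 1 to 8, in the order of the series. The animals carried no treatment in the labels, and no river condition of either year was given in the sources used here. Because the sampling months differ, year and season cannot be told apart.

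The bivalve kidney filters and modifies haemolymph, takes back ions and small organic molecules, and stores metals in concretions. Mussels are ectotherms, and their metabolism, immune state and reproductive state follow the seasons of the river. Animals taken from the wild also carry whatever parasites, symbionts and food they held when they were sampled, and RNA of all these can enter a tissue library.

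Reads had been counted per assembled contig. A contig carried a gene or protein name (1422 contigs with 1063 distinct names), a LOC number (15587), a locus tag (2948) or only a running number (31435). How names were assigned is not given in the sources used here, so a name is used as a label and not as a proven identity. Numbers after a dot were read as separate contigs of 1 name, between which reads may be split. The upstream libraries held 70.93 to 175.3 M counts in 2009 and 64.68 to 95.08 M in 2010. Mean totals of 99.3 ± 35.9 M and 76.2 ± 10.0 M (SD, n = 8) had a two-sided exact permutation p of 0.078. The scaling factors of the trimmed mean of M-values (TMM) method averaged 0.890 ± 0.263 in 2009 and 1.12 ± 0.147 in 2010, with an exact permutation p of 0.0486, or 0.078 adjusted over the 2 measures. Each of the 4 lanes held 2 upstream libraries of each year. The years shared 0 index sequences, and library numbers ran from 1 to 10 in 2009 and from 70 to 78 in 2010, so year and library series cannot be told apart. Levels below are in CPM, read counts divided by the TMM-scaled library size in M, and they compare animals, not genes, because contig lengths were not used. In bulk tissue, fewer cells of a type and less RNA per cell cannot be told apart.

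Among 51264 contigs tested, edgeR called 405 higher and 1509 lower in 2010 at a Benjamini-Hochberg adjusted p below 0.05. That is 3.73% in all, 0.79% higher and 2.94% lower, while 9953 contigs had an unadjusted p below 0.05. The changes were moderate for most: the median log2 change was 0.81 over the higher calls and -1.05 over the lower ones. At least a 2-fold change was estimated for 120 of the higher and 830 of the lower calls, and at least 4-fold for 7 and 149. Contigs that carry a gene name leaned to lower levels: 10 were called higher and 121 lower of 1416 tested, or 9.25% called, against 6.06% of locus tags, 5.3% of LOC numbers and 2.49% of the contigs with a running number. Their median log2 change was -0.34, against -0.02 over all contigs. Estimates were below 0 in 72.46% of named contigs and in 51.57% of all. In 8.545% of named contigs the call was lower and in 0.7062% higher, against 1.633% lower among contigs with a running number; counts over gene lists below are to be read against these shares of named contigs.

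**Figure D1:**
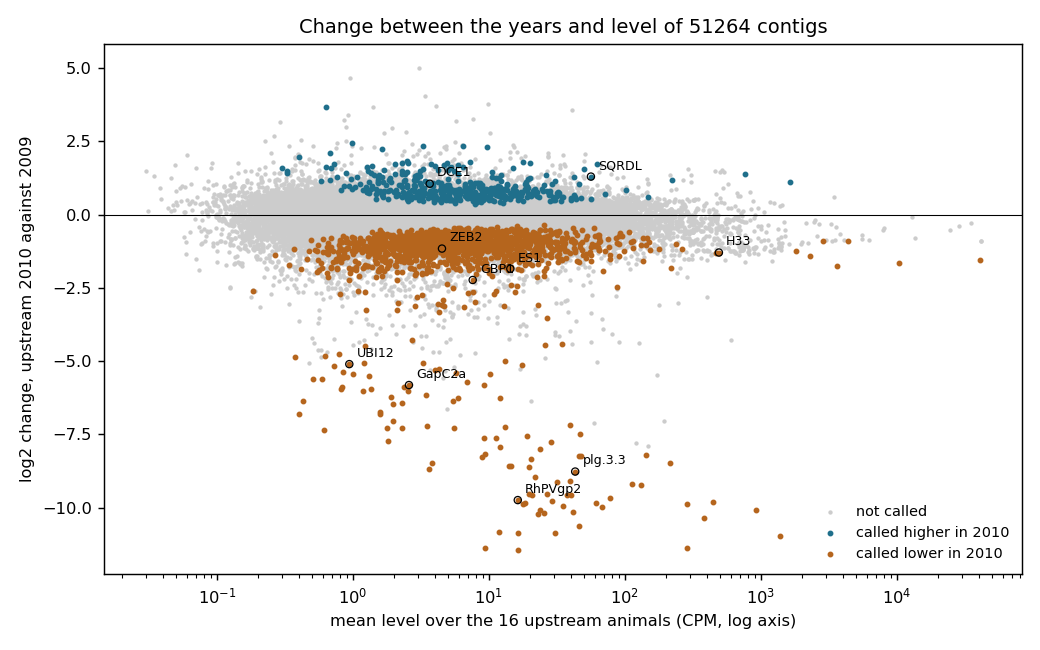
Log2 change between 2009 and 2010 upstream (vertical) against the mean level over the 16 upstream animals in CPM (horizontal, log axis), 1 point per tested contig. Called contigs are coloured by direction; most lower calls lie between 0 and -2.5, and a separate set of lower calls lies below -4.

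Few contigs kept the years fully apart. In 178 contigs (0.347%) all 8 animals of 2010 lay above all 8 of 2009, and in 205 (0.4%) all animals of 2009 lay above those of 2010. Among the calls these were 120 of the higher and 179 of the lower ones. With contigs chosen by the smallest adjusted p, the clearest change of all was in contig_19479, which has no gene name. Its level was 6.32, 9.50 and 11.3 CPM (lowest, median and highest animal) in 2009 and 25.5, 31.5 and 34.4 CPM in 2010. It rose by 1.76 ± 0.16 on the log2 scale, with an adjusted p of 1.33e-07. The years did not overlap, and the lowest animal of 2010 was more than 2-fold above the highest of 2009. The unnamed contig_23418 rose from a median of 2.08 to 10.9 CPM, by 2.33 ± 0.24. On the lower side, contig_11006 fell from a median of 45.5 CPM to 17.7 CPM and LOC106057680 from 28.6 to 8.51 CPM, again with no overlap. All 4 were called in each of the 10 alternative settings and after leaving out any of the 32 libraries.

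SQRDL, the mitochondrial enzyme that takes electrons from hydrogen sulfide into the respiratory chain, was the clearest higher call with a gene name. It stood at 23.5, 32.4 and 46.4 CPM (lowest, median, highest) in 2009 and at 59.0, 85.8 and 98.8 CPM in 2010. No animal of 2010 reached down to the range of 2009. The log2 change was 1.30 ± 0.20 with an adjusted p of 0.000495, and it was positive in each lane, from 1.05 to 1.72. The other 4 contigs of the sulfide and sulfur metabolism list were not called.

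The remaining 9 named contigs that rose fall into few groups. Glutamate decarboxylases make GABA, the inhibitory transmitter, from glutamate, and both contigs with that name rose. DCE1 stood at 1.61, 2.42 and 3.05 CPM in 2009 and at 4.13, 5.06 and 5.37 CPM in 2010, with no overlap, a log2 change of 1.05 ± 0.29 and an adjusted p of 0.0333. DCE2 rose by 0.93 ± 0.24 (adjusted p 0.0286), from a median of 7.64 to 14.8 CPM, with ranges that overlapped slightly. Neither was called with age class and lane terms together. In pre-mRNA splicing, U2AF2, which binds the 3′ splice site, rose by 0.46 ± 0.13, and PPIL4, a prolyl isomerase with an RNA-binding domain, rose by 0.52 ± 0.14. PPIL4 was at 9.08 to 14.1 CPM in 2009 and at 14.3 to 19.0 CPM in 2010, without overlap. These were the 2 calls among 21 tested splicing contigs (0.7062% of named contigs and 0.79% of all were called higher), and the median change of the 21 was 0.00. U2AF2 was not called with a lane term or in a fit of the upstream libraries alone.

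ACPM, the acyl carrier protein of mitochondrial fatty acid synthesis, rose by 0.86 ± 0.25 from a median of 6.92 to 14.8 CPM (adjusted p 0.0445). Its animals overlapped: 5 of 8 in 2010 exceeded the highest of 2009. ACPM was called in 16 of 32 fits with 1 library left out. The call was lost with age class and lane terms together and in the upstream libraries alone. The von Willebrand factor A domain contigs VWA5A.1.2 and VWA5A.2.2 rose by 0.61 ± 0.15 and 0.60 ± 0.15. The zinc finger contig znf318 rose by 0.59 ± 0.14, from a median of 28.6 to 42.5 CPM, with 7 of 8 animals of 2010 above the highest of 2009. YD115 rose by 1.11 ± 0.30 from 1.29 to 2.24 CPM. Of the 10 named higher calls, SQRDL alone was called in every alternative setting and with each library left out.

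**Figure D2:**
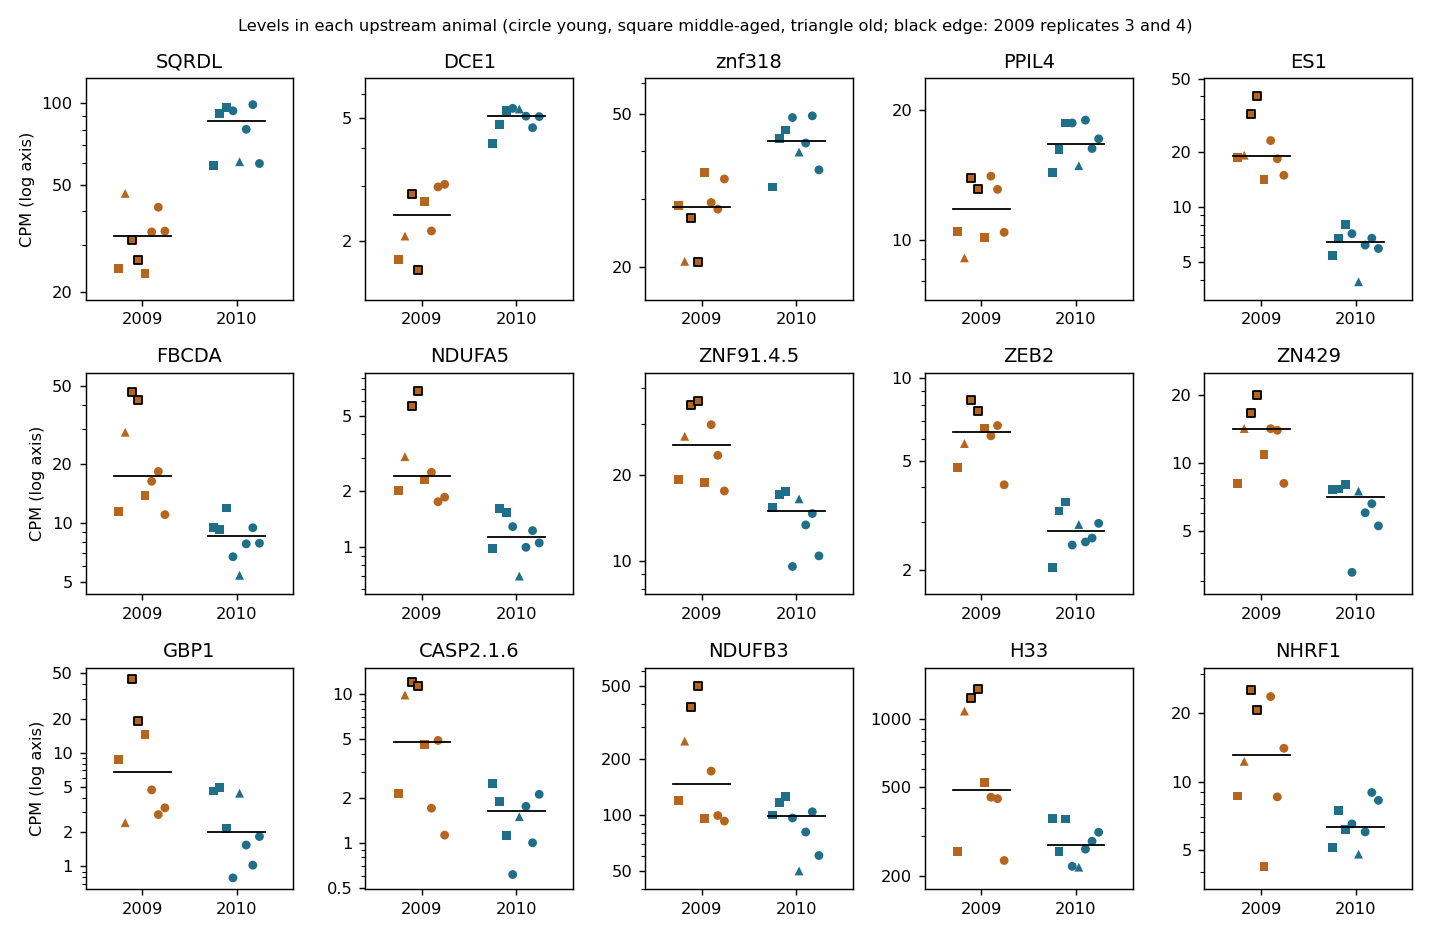
Level of 15 named contigs in each upstream animal in CPM (log axes), 2009 left and 2010 right in each panel. Symbols give the age class, lines the group medians, and black edges mark 2009 replicates 3 and 4; SQRDL, DCE1, PPIL4, ES1, NDUFA5, ZNF91.4.5, ZEB2 and ZN429 show no overlap, while the marked animals lie at the top of many other panels.

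The zinc finger proteins gave the largest number of lower calls of the 28 gene lists. Proteins with tandem C2H2 zinc fingers bind DNA, and most act as transcription factors or repressors; in vertebrates the large family with the names met here silences mobile elements. Of 84 contigs with 48 names, 36 were called lower (42.86%, against 8.545% of named contigs and 2.94% of all contigs) and 1 higher (znf318). Of the 84, 75 had an estimate below 0, against 72.46% of named contigs. Their median log2 change was -0.79, against -0.34 over named contigs and -0.02 over all contigs. Because such contigs are alike in sequence, reads may be shared among them and the 84 are not 84 independent measurements.

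ZEB2, a zinc finger homeobox repressor, had the smallest adjusted p of the list. It was at 4.08, 6.36 and 8.35 CPM in 2009 and at 2.04, 2.77 and 3.53 CPM in 2010. It fell by 1.16 ± 0.14 on the log2 scale, with an adjusted p of 4.33e-05, and the years did not overlap. ZN429 was at 8.11, 14.0 and 19.9 CPM in 2009 and at 3.28, 7.05 and 8.02 CPM in 2010, again without overlap (-1.03 ± 0.19, adjusted p 0.00249). ZNF91.4.5 fell from a median of 25.3 to 15.0 CPM without overlap, and ZN234 from 4.63 to 1.98 CPM, where 7 of 8 animals of 2009 lay above the highest of 2010.

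Summed over the list, zinc finger contigs held 357.7, 448.8 and 589.2 CPM (lowest, median, highest animal) in 2009 and 284.2, 338.9 and 401.9 CPM in 2010, so the sums overlapped. The median change was -0.85 within young animals and -0.62 within middle-aged ones. The number of calls depended on the animals: 14 remained without 2009 replicate 3, 14 without 2009 replicate 4 and 4 without both, where the median was -0.60. It was 17 in limma-voom and 14 in a fit of the upstream libraries alone. In all 10 alternatives and with each library left out, 9 were called lower throughout.

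Other named contigs fell without an overlap of the years, or with little. ES1, named for a mitochondrial protein, was at 14.1, 18.8 and 40.1 CPM in 2009 and at 3.90, 6.44 and 7.99 CPM in 2010. It fell by 1.85 ± 0.26 (adjusted p 0.00014), with no overlap and in all 4 lanes, from -2.25 to -1.38. R3HDM4 fell by 1.50 ± 0.26 from a median of 6.41 to 2.70 CPM, also without overlap. FBCDA, a fibrinogen-domain protein of a family that binds acetyl groups on microbes, was at 11.0, 17.3 and 46.5 CPM in 2009 and at 5.38, 8.54 and 11.9 CPM in 2010. It fell by 1.48 ± 0.30 (adjusted p 0.00559), with 6 of 8 animals of 2009 above the highest of 2010. It was the only call of the 20 tested lectins, fibrinogen-domain and complement-like proteins (5% lower, against 8.545% of named contigs and 2.94% of all).

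A further set of proteins was spread more widely between the animals of 2009. SERP2, of the endoplasmic reticulum translocon, was at 50.1, 183 and 455 CPM in 2009 and at 40.1, 62.1 and 96.5 CPM in 2010 (-1.58 ± 0.43, adjusted p 0.0329). OST4.2.2, a subunit of the oligosaccharyltransferase that glycosylates proteins there, fell by 1.37 ± 0.39. MMAA.2.2, a GTPase of mitochondrial cobalamin metabolism, fell by 1.44 ± 0.34, and RPA1.2.2 fell by 1.39 ± 0.35. None of the 4 was called in every alternative. SERP2 and OST4.2.2 were not called with an age term, with a lane term, or in a fit of the upstream libraries alone. RPA1.2.2 was not called with an age term, alone or beside a lane term, and MMAA.2.2 was not called in the upstream libraries alone or in limma-voom.

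Named contigs outside the rule that were called lower in every setting and with every library left out were looked up after their values were seen. NIT2, an amidase that clears a toxic product of glutamine metabolism, fell by 1.35 ± 0.26, from a median of 55.2 CPM in 2009, without overlap. TERT.2.4, TERT.3.4 and TERT.4.4, named for telomerase reverse transcriptase, fell, with log2 changes of -1.308 ± 0.23, -2.104 ± 0.37 and -2.115 ± 0.42. RPB7, a subunit of RNA polymerase II, fell by 1.12 ± 0.24, and the nuclear pore contigs nup50.1.2 and nup50.2.2 by 1.00 ± 0.22 and 1.06 ± 0.22. METAP1D, which removes the first methionine of mitochondrial proteins, fell by 1.17 ± 0.23.

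Most mitochondrial lists leaned lower than named contigs as a whole, in which the median was -0.34 and 72.46% of estimates were below 0. Calls were few. The list of respiratory complexes III and IV, cytochrome c and assembly factors lay close to named contigs. There 11 of 16 estimates were below 0, the median was -0.37 and edgeR called 0. In respiratory complex I, which passes electrons from NADH to ubiquinone, all 11 tested contigs had estimates below 0 (median -0.97), and 2 were called lower (18.18%, against 8.545% of named contigs and 2.94% of all). NDUFA5 was at 1.75, 2.40 and 6.79 CPM in 2009 and at 0.702, 1.14 and 1.61 CPM in 2010, without overlap (-1.46 ± 0.27, adjusted p 0.00311). NDUFB3 fell by 1.22 ± 0.33, from a median of 146 to 98.3 CPM, with 4 of 8 animals of 2009 inside the range of 2010. NDUFA5 stayed called in all 10 alternatives and in all 32 fits without 1 library, whereas NDUFB3 was not called with an age or lane term, in the upstream libraries alone, or in limma-voom.

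Of 19 contigs of mitochondrial ribosomes and protein import, 18 had estimates below 0, against 72.46% of named contigs, and the median was -0.66. Called lower were 4 of the 19 (21.05%, against 8.545% of named contigs and 2.94% of all). These 4 were MRPS14.1.3, MRPS14.2.3 and MRPS14.3.3, contigs of 1 ribosomal protein (-1.18 ± 0.33, -1.38 ± 0.34 and -1.09 ± 0.27), and RT02 (-1.09 ± 0.30). Without 2009 replicate 3 or without replicate 4 edgeR called 0 of the 19, with 10 and 8 at an unadjusted p below 0.05. In the upstream libraries alone it also called 0, with 11 at an unadjusted p below 0.05. In the full set DESeq2 called 7, while limma-voom called 0 lower and 1 higher in 2010. The median was -0.31 without both animals and -0.11 within young animals. RT02 was not called with an age or a lane term.

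The ATP synthase list had 7 of 7 estimates below 0, against 72.46% of named contigs. The 1 call (14.29% lower, against 8.545% of named contigs and 2.94% of all) was atp5o.1.2 (-1.23 ± 0.35, adjusted p 0.04). Its 5 highest animals were all of 2009, and it was not called with an age or lane term, in the upstream libraries alone, or in limma-voom. Of 39 tested cytosolic ribosomal protein contigs, 0 were called by edgeR, although the median was -1.19 and 28 had an unadjusted p below 0.05. DESeq2 called 4 of them and limma-voom 0, and edgeR called 24 without downstream 2009 replicates 7 and 8. For ATP synthase, complex I and ribosomal proteins the median was 0.07, -0.02 and -0.24 within young animals and -1.17, -1.13 and -1.25 within middle-aged ones. Without 2009 replicates 3 and 4, both middle-aged, the medians of the same lists over all animals were -0.13, -0.40 and -0.69.

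**Figure D3:**
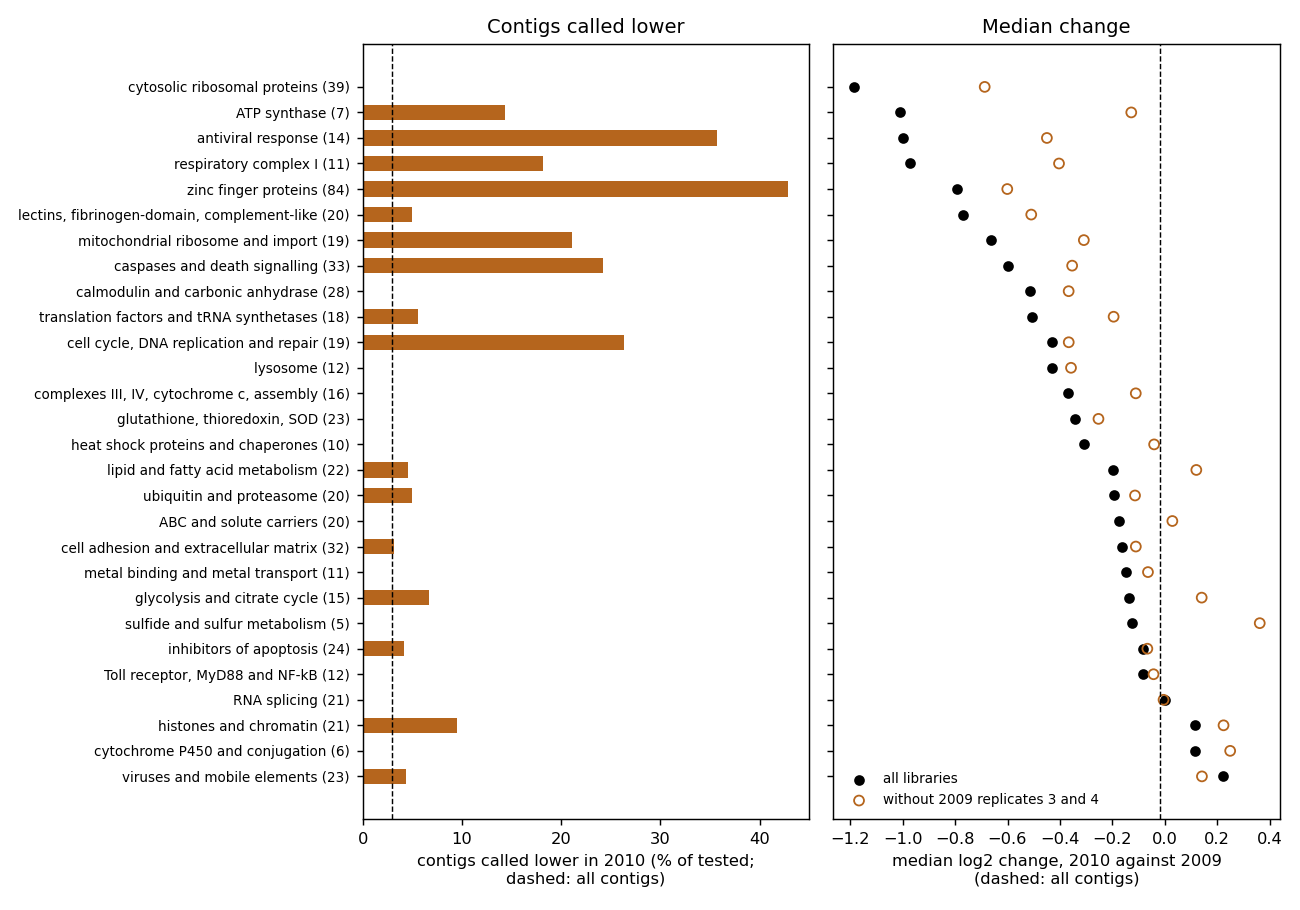
Share of tested contigs called lower in 2010 (left) and median log2 change (right) for 28 gene lists, with the number of tested contigs in brackets. Dashed lines give all contigs, and open circles the median without 2009 replicates 3 and 4; 42.86% of zinc finger contigs were called lower, and the ATP synthase median moved from -1.01 to -0.13 without those animals.

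Some genes of cell death and of antiviral defence fell, and most of these calls were lost when either of 2 animals of 2009 was left out. Caspases are the proteases that carry out apoptosis. Of 33 contigs of caspases and death signalling, with 14 names, 8 were called lower and 0 higher. That is 24.24% lower, against 8.545% of named contigs and 2.94% of all, and the median was -0.60. The 8 calls include CASP2.1.6 and CASP2.2.6, contigs of 1 name with similar levels in each animal, so they are not 8 separate genes. CASP2.1.6 was at 1.13, 4.75 and 12.1 CPM in 2009 and at 0.613, 1.63 and 2.50 CPM in 2010 (-1.93 ± 0.47, adjusted p 0.0189). Its highest animals were 2009 replicates 3 and 4, and 3 animals of 2009 lay within the range of 2010. The contig aifm1, named for a mitochondrial flavoprotein that can be released in cell death, fell by 1.14 ± 0.29. Without 2009 replicate 3, and likewise without replicate 4, 0 of the 33 were called by edgeR, with 13 and 14 at an unadjusted p below 0.05. In the full set DESeq2 called 11 and limma-voom 1. With both animals left out the median was -0.35.

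The antiviral list covers genes of which most are raised by interferon in vertebrates. Of 14 contigs with 10 names, 5 were called lower (35.71%, against 8.545% of named contigs and 2.94% of all). Estimates were below 0 in 11 of the 14, near the 72.46% of all named contigs, with a median of -0.998. The guanylate-binding protein GBP1 was at 2.42, 6.74 and 44.8 CPM in 2009 and at 0.791, 2.00 and 4.94 CPM in 2010 (-2.23 ± 0.61, adjusted p 0.034). RSAD2.1.2, named for viperin, reached 75.2 CPM in 2009 replicate 3, against a median of 5.56 CPM in that year and 2.95 CPM in 2010 (-1.999 ± 0.56, adjusted p 0.0372). PARP14, an ADP-ribosyltransferase, changed least of the 5 calls: it was at 5.48, 6.38 and 7.37 CPM in 2009 and at 3.95, 4.70 and 5.58 CPM in 2010 (-0.46 ± 0.11, adjusted p 0.0219). Its levels in 2009 replicates 3 and 4, 6.52 and 6.42 CPM, lay close to the median of that year. It was called in all 10 alternatives and in 31 of 32 fits with 1 library left out, the exception being without 2010 replicate 4 (adjusted p 0.0547). Without that animal of 2010, 0 of the 14 contigs were called lower. Without 2009 replicate 3, adjusted p rose to 0.158 for GBP1 and 0.301 for RSAD2.1.2, and 1 of the 14, PARP14, was called, as was the case without replicate 4. Without replicates 3 and 4 together, 0 were called by edgeR, with 3 at an unadjusted p below 0.05, and the median was -0.45. In the full set DESeq2 called 6 and limma-voom 2.

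In cell cycle, DNA replication and repair, 5 of 19 contigs were called lower (26.32%, against 8.545% of named contigs and 2.94% of all) and 0 higher (median -0.43). NBN, which senses double-strand breaks, fell by 0.68 ± 0.16 from a median of 21.7 to 14.3 CPM, with 7 of 8 animals of 2009 above the highest of 2010. It was called in all alternatives and with each library left out. FANCL and fancl, 2 contigs named for the ubiquitin ligase of the Fanconi anaemia pathway, fell by 1.07 ± 0.26 and 1.02 ± 0.26. The 5 calls were 3 without 2009 replicate 3, 1 without replicate 4 and 2 in the upstream libraries alone. Without both animals edgeR called 0, with 6 at an unadjusted p below 0.05 and a median of -0.37; in the full set DESeq2 called 7 and limma-voom 3.

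Among histone and chromatin contigs, 2 of 21 were called lower (9.524%, close to the 8.545% of all named contigs) and 0 higher. The median of 0.11 had no stable sign: it ranged from -0.24 to 0.73 with 1 library left out, was -0.67 in young and -0.23 in middle-aged animals, and was above 0 in 1 of 4 lanes. Both calls carried names of variants that are made outside DNA replication. H33 was at 234, 486 and 1357 CPM in 2009 and at 219, 274 and 360 CPM in 2010 (-1.30 ± 0.36, adjusted p 0.0382), and H2AV fell by 1.40 ± 0.38 from a median of 111 to 48.8 CPM. Neither was called with an age term. Among replication-linked names that were not called, H4.1.2 and H2B2.1.2 had estimates of 1.80 and 2.51. These 2 do not stand for the list, in which 10 of 21 estimates were below 0. Of the 21, only 3 had an unadjusted p below 0.05, the 2 calls included.

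The animals of 2009 differed more from each other than those of 2010. Over 44307 contigs with a mean of at least 1 CPM, the median absolute deviation of an animal's log2 CPM from the median of the other 7 of its year was 0.489 ± 0.0881 in 2009 and 0.309 ± 0.0686 in 2010 (SD, n = 8). The difference of -0.18 had a two-sided exact permutation p of 0.000622, and it was -0.19 with p 0.00187 over the 12352 contigs of at least 10 CPM. With each upstream animal left out it ranged from -0.21 to -0.15. The deviations were permuted as fixed values, and those of a year share animals in their medians. They are not independent, so the p-values are approximate. The SD of log2 CPM was larger in 2009 for 78.76% of the 44307 contigs, with medians of 0.60 and 0.37. Total counts per library also varied more in 2009; the part of depth in this difference was not tested.

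The lower calls drew on these animals unevenly. Of the 1509 lower calls, 684 (45.33%) had their highest 2009 level in replicate 4 and 412 (27.3%) in replicate 3, against 15.92% and 11.13% of all tested contigs. Both animals were middle-aged, both were sequenced in lane 4, and their TMM factors were 0.601 and 0.667. The median log2 difference of the lower calls was -0.84, -0.56, -0.69 and -1.69 within lanes 1, 2, 3 and 4, and that of the higher calls was 0.73, 0.68, 0.75 and 1.20. Without replicate 3 the calls fell from 1914 to 842, without replicate 4 to 784 and without both to 419, or 88 higher and 331 lower. In 2010 the higher calls leaned on replicate 4, a young animal, which was the highest of its year in 156 of 405 (38.52%), against 19.22% of all contigs; without it 869 calls remained.

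**Figure D4:**
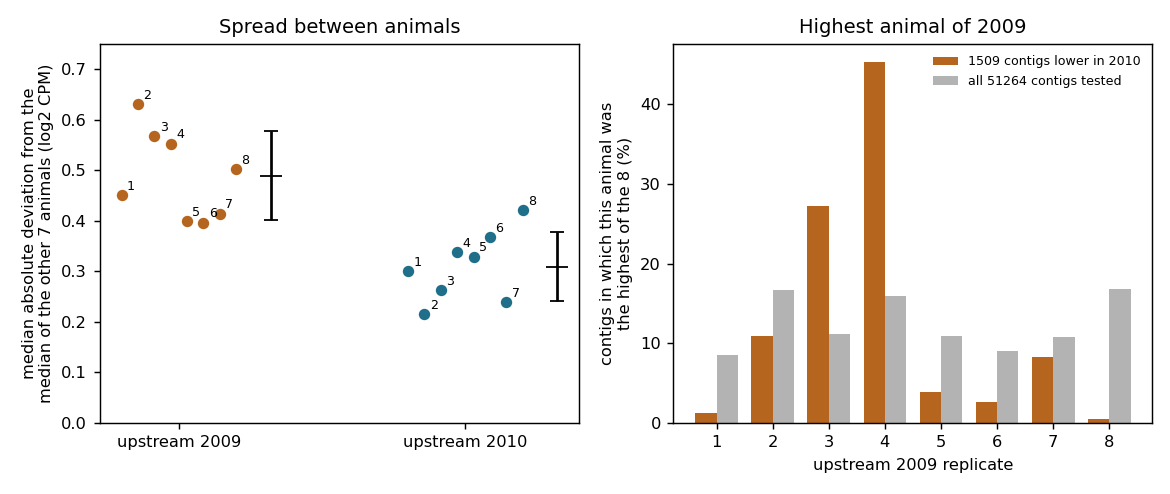
Left, median absolute deviation of each upstream animal from the median of the other 7 animals of its year (log2 CPM, replicate numbers beside points, mean and SD at the side). Right, share of contigs in which each 2009 animal was the highest of 8, for the 1509 lower calls and for all tested contigs; replicates 4 and 3 hold 45.33% and 27.3% of the lower calls.

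A separate set of lower calls had very large changes. With a threshold chosen after the values were seen, 105 contigs were called lower by at least 16-fold, while 0 were called higher by as much. They comprised 79 contigs with a running number, 10 LOC numbers, 5 with PHATRDRAFT or THAPSDRAFT tags and 11 others. Their summed level was 83390 CPM in 2009 replicate 7, which is 5.06% of that library's counts, and 6525 CPM in replicate 5, 1095 CPM in replicate 4 and 446.2 CPM in replicate 2. In the other 4 animals of 2009 it was 6.70 to 131.5 CPM, and in the 8 animals of 2010 it was 7.75 to 49.9 CPM. Replicate 7 was the highest of 2009 in 58 of the 105 and replicate 5 in 29. Without replicate 7, 52 of the 105 were still called lower, and limma-voom called 1. At the downstream site 50 of the 105 were also called lower, and 0 had a called difference between the sites. Their summed level there was 17.59 to 9032 CPM in 2009, highest in replicate 6. In downstream 2010 it was 11.15 to 368.4 CPM, highest in replicate 4.

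Named members of that set showed which animals were concerned. GapC2a, named for glyceraldehyde-3-phosphate dehydrogenase of glycolysis, was at 16.2, 9.78, 7.74 and 6.11 CPM in 2009 replicates 4, 5, 7 and 2 and at or below 0.70 CPM in the other 4. In 2010 it was at 0.0189 to 0.309 CPM. UBI12, named for ubiquitin, followed the same 4 animals, with 6.09, 4.03, 2.56 and 1.59 CPM. RhPVgp2, which the name places among viral genes, was highest in replicate 2 (138 CPM), replicate 5 (67.5 CPM) and replicate 3 (31.6 CPM), and was read 25 times in all 8 libraries of 2010 against 21372 times in 2009. The contig plg.3.3, named for plasminogen, was at 683 CPM in 2009 replicate 7 and at no more than 3.61 CPM in any other upstream animal; without replicate 7 its adjusted p was 0.239. Whether these reads stem from mussel cells was not tested.

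Summed over the 12 contigs whose tags begin with PHATR, the level was 5.01, 18.7 and 58.0 CPM in 2009 and 1.90, 4.45 and 6.06 CPM in 2010. The highest were 2009 replicates 4 and 5, at 58.0 and 37.2 CPM, and 2 animals of 2009 lay within the range of 2010. Of these contigs, 4 passed the filter on low counts.

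The kidney label was set against marker genes. Of 11 contigs for kidney or transport epithelium, all passed the filter, and their sum was 65.3, 168 and 568 CPM in 2009 and 25.5, 230 and 297 CPM in 2010. CUBN and LRP2, endocytic receptors of the proximal tubule in mammals, were read in both years and were not called. Of the 11, 2 were called lower (18.18%, against 8.545% of named contigs and 2.94% of all) and 0 higher. The list as a whole did not fall, with 6 of 11 estimates below 0 and a median of -0.07. The 2 calls were the slit-diaphragm contig nphs1, which fell by 0.76 ± 0.18, and NHRF1, which fell by 1.14 ± 0.32. Neither was called in the upstream libraries alone. Markers of muscle (18 contigs), cilia (29), haemocytes (10), gonad (3) and digestive gland (5) had 0 calls by edgeR in either direction, with 5 of their 65 contigs at an unadjusted p below 0.05; DESeq2 called 2 and limma-voom 0. By edgeR 9.25% of named contigs were called in either direction, and 9953 of all 51264 contigs had an unadjusted p below 0.05. Muscle sums reached 2945 CPM in 2009 replicate 7 and 5506 CPM in 2010 replicate 6, and gonad sums ranged from 9.40 to 91.0 CPM in 2009 and from 6.45 to 31.2 CPM in 2010; the part of such cells in the results was not tested.

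Within age classes few contigs passed. In a fit of the 14 young and middle-aged upstream libraries, 1 contig was called in young animals (0.00195% of 51258, 3 against 4 animals) and 3 in middle-aged ones (0.00585%, 4 against 3), while 3143 and 7417 had an unadjusted p below 0.05. The unnamed contig_23418 was called in both, at 2.09 in young and 2.57 in middle-aged animals, and contig_19479 and LOC106065230 in middle-aged animals alone, at 1.85 and 2.59. For the difference between the age classes edgeR called 0, with 2263 at an unadjusted p below 0.05. Of 1911 year calls with an estimate here, 405 higher and 1504 lower ones kept their sign in young animals, and as many in middle-aged ones. These estimates share their animals with the year calls, so the agreement of sign is a description. The median of the higher calls was 0.71 in young and 0.83 in middle-aged animals, and that of the lower calls -0.72 and -1.08.

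The downstream site, sampled in the same months, shares no library with the upstream one. Both year effects came from the same fit and share its estimate of each contig's spread, so the calls at the sites are not independent. Of the contigs called upstream, 277 of the 405 higher (68.4%) and 1183 of the 1509 lower (78.4%) were called in the same direction downstream at the same adjusted p, where 14.1% and 13.7% of all contigs were called higher and lower. These are 3.846% and 16.85% of the 7203 and 7022 downstream calls. The median change of the higher calls was 0.81 upstream and 0.70 downstream, and that of the lower calls -1.05 and -1.03. SQRDL changed by 0.89 ± 0.20 downstream and ES1 by -1.76 ± 0.26, while the zinc finger list had 58 contigs called lower there with a median of -0.91. At the downstream site 7 of the 8 animals of 2009 were old, against 2 of 8 in 2010, so its year effect also carries age. Library numbers there ran from 11 to 19 in 2009 and from 80 to 88 in 2010. Year and library series therefore cannot be told apart at either site.

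The 2 year effects differed by test in 226 contigs (0.441%), with 225 lower upstream relative to downstream and 1 the other way. Of these, 9 were among the upstream lower calls and 0 among the higher ones. NHRF1, a PDZ scaffold that anchors transporters at the apical membrane of mammalian kidney tubules, was at 4.22, 13.2 and 25.4 CPM upstream in 2009 and at 4.80, 6.34 and 8.97 CPM in 2010. It fell by 1.14 ± 0.32 upstream (adjusted p 0.0418) and rose by 0.95 ± 0.32 downstream (adjusted p 0.027), where its mean went from 5.53 to 10.7 CPM. The upstream call was lost with a lane term, in the upstream libraries alone, in limma-voom and in 12 of 32 fits with 1 library left out, with the highest adjusted p (0.114) without 2009 replicate 3. The difference of -2.09 had an adjusted p of 0.0347. The apoptosis inhibitor contig DIAP2.1.3, whose Drosophila namesake also serves immune signalling, fell by 0.88 ± 0.22 upstream, with an estimate of 0.45 ± 0.22 downstream that was not called. The difference of -1.33 had an adjusted p of 0.0441. The count of differences was 37 with an age term and 4064 in limma-voom.

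**Figure D5:**
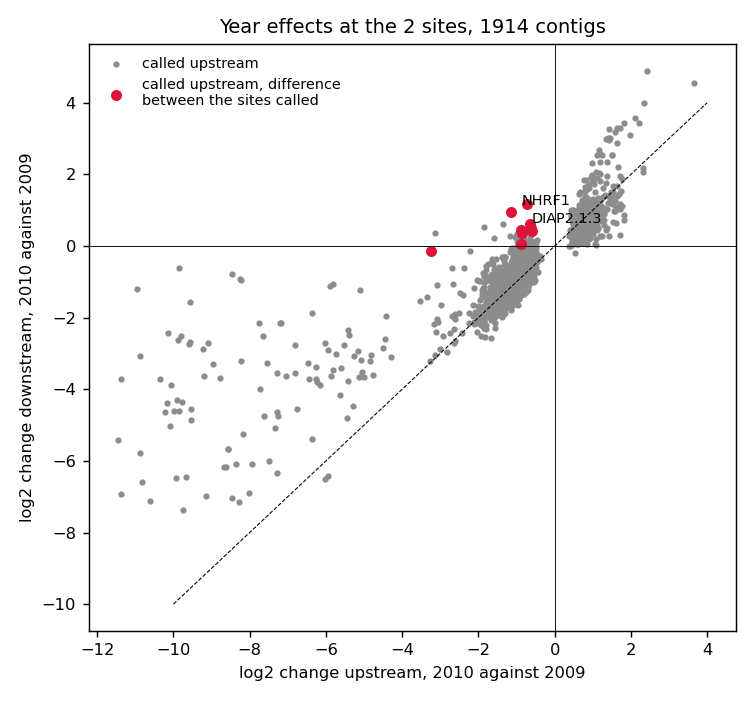
Log2 change between the years at the downstream site (vertical) against that at the upstream site (horizontal) for the 1914 contigs called upstream; the dashed line marks equal change. Most points lie in the quadrants of equal sign, and the 9 contigs whose difference was called are in red, among them NHRF1 and DIAP2.1.3.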

How the data were processed

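Kidney RNA of 32 mussels was prepared with an SV Total RNA kit (Promega) and a TruSeq RNA v2 kit, per the labels' protocols. The authors deposited 1 table of raw read counts per assembled contig, with 51392 contigs and 32 library columns. BWA 0.7.12 and SAMtools 1.1 are listed in the submitters' processing notes; how contigs were assembled and named, and how reads with several matches were counted, is not given in the sources used here. No genome was used.

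The deposited counts were fitted with edgeR 4.0.16 (R 4.3.3; robust quasi-likelihood, TMM factors, filterByExpr with a minimum count of 10 and total of 15) as 4 group means over all 32 libraries, which left 51264 contigs. The year contrast upstream and its difference from the downstream one were tested with Benjamini-Hochberg adjustment over all contigs, at 0.05. Errors beside log2 changes are standard errors. The scripts were tested on simulated data.

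Groups came from the labels, which call each sample an individual. Named contigs were: every named higher call; the 15 named lower calls of largest change with a mean of at least 5 CPM in 2009 and at least 7 of 8 animals above the median of 2010; up to 4 calls per gene list; and 2 unnamed contigs per direction. A few contigs the rule names are not reported here. The members, lists and this rule were chosen with earlier results of these data known. Log2 CPM used a prior count of 2. Alternatives covered RLE factors, filters, age and lane terms, upstream libraries alone, limma-voom (limma 3.58.1), DESeq2 1.42.0 and left-out libraries. Counts limit precision at low levels only in part, since the common biological coefficient of variation was 55.3%.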

Additional observations from a re-analysis of the deposited data

Results flagged for a closer look

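Among 142 sets of 8 values examined, with levels taken as log2 CPM, 8 held an outlying animal. All of these were sets of contig levels, except for the TMM factors of 2010. Such an animal was set apart from the other 7 by a gap larger than Dixon's 95% criterion allows. Chance flags about 1 in 20 sets. In 2009, replicate 7 was the highest for plg.3.3 at 682.6 CPM and for HPHL1, named for a copper ferroxidase, at 446.5 CPM. In 2010, replicate 5 was the lowest for atp5o.1.2 (12.22 CPM), for the chitinase contig CHIA.2.3 (5.169 CPM) and for contig_19479 (25.46 CPM), and had the highest TMM factor, 1.468. Replicate 4 of 2010 was the lowest for ZN429 (3.28 CPM), and replicate 8 the highest for DIAP2.1.3 at 6.571 CPM. HPHL1 was not called.

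The year effect differed by test between the sites in 226 contigs. For named contigs of the report the upstream change lay below the downstream one by 2.09 (log2 difference -2.093) for NHRF1 and by 1.33 (-1.33) for DIAP2.1.3.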

How the results depend on the processing

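No paired analysis was possible, because the labels number each animal singly and the replicate numbers used here pair no animals between the years. The lanes held both years in equal numbers, and with a lane term the 1914 calls (405 higher, 1509 lower) were 1385 (334 and 1051). They were 1059 with age class and lane terms (759 lower), 1180 in upstream libraries alone (858 lower), 3612 in DESeq2 (870 and 2742) and 4420 without downstream 2009 replicates 7 and 8 (1101 and 3319). They were 419 (88 and 331) without upstream 2009 replicates 3 and 4, a setting chosen after seeing the data. In limma-voom 1180 of 2663 calls were higher, 44.31% against 21.16%. With 1 library left out the calls ranged from 784 to 3624, higher calls from 167 to 892 and lower calls from 617 to 2732. Among upstream libraries of 2009, leaving out replicate 3 gave 842 calls, replicate 4 784, replicate 2 1307, replicate 1 2866 and replicate 8 3624. Among those of 2010, leaving out replicate 4 gave 869, replicate 7 1189 and replicate 5 1204. Leaving out replicate 8 of downstream 2009 gave 3071. The cause was not tested.

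The 226 differences between the sites were 137 with RLE factors, 37 with an age term, 93 with a lane term, 4064 in limma-voom, 940 in DESeq2 and 706 without downstream 2009 replicates 7 and 8. The 3 calls in middle-aged animals were 7 when all 32 libraries were fitted. HPHL1 ranged from -4.79 to 0.61 with 1 library left out, reversed without upstream 2009 replicate 7, and MLRA reversed to -0.62 in limma-voom, neither of them called. The spread between the animals of a year kept its direction and side of the threshold in every setting tried, with differences from -0.21 to -0.15 with 1 animal left out. All 10 alternatives kept 658 of the calls, each library left out in turn 626, and both together 506 (113 higher, 393 lower). Contigs of few reads are limited by depth, and year, month, index and library series cannot be told apart.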
